A study of Mus musculus with 12 samples.

Results

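Immediate early genes are the first genes that a cell transcribes when a growth factor, a hormone or a stress reaches it, and they need no new protein to be switched on. A set of 10 of them, among 15140 genes in the deposited count table, is described here in mouse liver: Fos, Jun, Junb, Jund, Egr1, Ier2, Ier3, Btg2, Dusp1 and Myc. They were chosen by name, as the rows of the table that carry these symbols, and all 10 passed the filter on low counts. Both groups were livers of male mice given high-fat food (60 kcal% fat) for 3 months from an age of 7 to 8 weeks. The 6 libraries called KO came from mice without prohibitin 1 in adipocytes (Phb1adipo-/-), and the 6 called WT from wild-type mice. The promoter that drove the deletion is not given in the sources used here, and neither is whether each library came from its own animal, so the p-values reflect only how these 12 libraries vary, which may be technical.

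In the liver these genes are best known from regeneration, feeding and stress. MAP kinases activate serum response factor and its ELK partners, and protein kinase A activates CREB, and both act on the regulatory DNA of early genes. Fos and Jun family proteins pair as the AP-1 transcription factor, EGR1 and MYC switch on later genes, and DUSP1 removes the phosphates that keep MAP kinases active.

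Total counts per library ran from 30348123 to 40828767. Phb, the targeted gene, stood at 88.6 to 100 CPM (the count scaled by library size) in KO and at 80.0 to 91.2 CPM in WT. Because only adipocytes were targeted, its level in liver is no test of the labels. The hepatocyte markers Alb, Apoa1 and Ttr were abundant in both groups. Of 9 hepatocyte markers tested, 0 passed, and 6 were positive and 3 negative, with a median log2 fold change of 0.16. An unadjusted edgeR p under 0.05 was reached by 2 of the 9, against 21.2% of all genes. With DESeq2 1 of the 9 was called, against 8.07%, and with limma-voom 0, against 2.63%. Of 12 macrophage markers, 3 fell (Cd5l, Adgre1 and Vsig4; 1.49% of all genes fell) and 9 did not pass, and none was at 0. At an unadjusted edgeR p under 0.05 there were 10 of the 12, against 21.2% of all genes. DESeq2 called 10, against 8.07%, and limma-voom 3, against 2.63%. Their summed level was 210 to 409 CPM in KO and 353 to 561 CPM in WT, so the groups overlapped. With single libraries left out, Cd5l lost its call in 2 of 12 fits, Adgre1 in 4 and Vsig4 in 7. Of the markers of other cells, 0 of 10 endothelial, 10 stellate, 7 cholangiocyte, 6 neutrophil and 5 red blood cell genes passed, and 1 of 7 lymphocyte genes fell (Lck, whose call was lost in 8 of 12 such fits). Fold changes were negative for each of the 12 macrophage, 10 endothelial, 7 lymphocyte and 6 neutrophil genes, with median log2 values of -0.63, -0.15, -0.56 and -0.67. RNA of whole liver was sequenced, so fewer cells of a type and less RNA per cell cannot be told apart.

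Promoter sequence was matched by symbol for 7 of the 10 genes (RefSeq, build GRCm38.p6, the 250 bases before the annotated start). The Fos, Btg2 and Dusp1 promoters are shown because Fos and Btg2 varied together between libraries, and because these 3 carry the letters TGACG, the core of the cAMP response element that CREB and CREM bind. Capitals mark TGACG on either strand; TGACGTCA, the full palindromic element, holds it on both. Positions are chr12:85473640-85473889 on the plus strand for Fos, chr1:134079156-134079405 on the minus strand for Btg2 and chr17:26508473-26508722 on the minus strand for Dusp1.
Fos: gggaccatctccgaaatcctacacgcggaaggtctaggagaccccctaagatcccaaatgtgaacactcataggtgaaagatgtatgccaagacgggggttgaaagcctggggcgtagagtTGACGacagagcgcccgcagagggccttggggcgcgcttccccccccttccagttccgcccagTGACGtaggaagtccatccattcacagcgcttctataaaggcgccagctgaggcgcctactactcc
Btg2: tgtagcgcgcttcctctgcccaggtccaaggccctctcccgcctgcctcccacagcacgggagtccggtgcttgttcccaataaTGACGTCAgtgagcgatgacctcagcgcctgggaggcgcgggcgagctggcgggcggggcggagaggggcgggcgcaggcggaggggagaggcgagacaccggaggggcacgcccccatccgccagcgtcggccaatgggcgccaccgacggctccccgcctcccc
Dusp1: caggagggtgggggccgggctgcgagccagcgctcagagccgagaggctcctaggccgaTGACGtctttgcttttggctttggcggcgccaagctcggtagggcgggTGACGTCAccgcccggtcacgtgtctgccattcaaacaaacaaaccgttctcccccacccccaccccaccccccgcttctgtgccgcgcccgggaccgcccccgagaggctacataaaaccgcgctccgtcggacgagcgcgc

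In Fos, TGACG began 129 and 66 bases before the start, and the TATA box letters TATAAA began 33 bases before it. TGACGTCA began 166 bases before the start of Btg2 and 143 bases before that of Dusp1. TGACG, searched on both strands, was present in 4 of the 7 promoters (also in Junb), against 17.8% of 32851 mouse promoters of the same length, and TGACGTCA in 2 of 7, against 1.55%. The CArG box bound by serum response factor was in 0 of 7 of these windows and in 1.47% of all; the AP-1 site TGANTCA was in 0 of 7 and in 6.75%. These are matches of letters, not binding sites. No promoter was matched for Egr1, Ier2 or Myc, and sites further upstream than these windows were not searched for any gene.

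In GRCm38 (GENCODE M21) the genes lie on several chromosomes. Junb (84974484 to 84978718), Jund (70698949 to 70700616) and Ier2 (84661331 to 84662852) are on chromosome 8, and Ier3 (35821684 to 35822923) and Dusp1 on chromosome 17. Btg2 is on chromosome 1 (134075170 to 134079120), Jun on chromosome 4 (95049034 to 95052222) and Fos on chromosome 12 (85473890 to 85477273). Myc is on chromosome 15 (61985391 to 61990374) and Egr1 on chromosome 18 (34859823 to 34864984).

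Levels of different genes were compared per kilobase of exon (GENCODE M21, GRCm38). Jund, the AP-1 subunit gene known for steady expression, was highest in WT with 17.0 ± 1.44 CPM per kb (SD, n = 6). Junb, with 14.7 ± 4.61, and Ier2, with 14.4 ± 1.90 CPM per kb, followed, and neither differed from Jund beyond their spread. Dusp1 (6.73 ± 1.94) and Jun (6.21 ± 2.39 CPM per kb) formed the next pair, followed by Egr1 (3.86 ± 1.73) and Btg2 (3.67 ± 1.62 CPM per kb), with overlapping ranges within each pair. Myc (0.868 ± 0.0913), Fos (0.755 ± 0.445) and Ier3 (0.666 ± 0.277 CPM per kb) were lowest and did not differ beyond their spread. The Dusp1 gene model spans 26505590 to 26562128 of chromosome 17, further upstream than the RefSeq start, so its exon length and its per-kilobase level depend on the annotation.

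The comparison of KO with WT asks whether loss of prohibitin 1 in fat cells went with a different early gene state in the liver. None of the 10 genes passed the test (edgeR quasi-likelihood, Benjamini-Hochberg adjusted p under 0.05 over all 15000 genes tested), against 2.64% of all genes (1.15% higher and 1.49% lower in KO). DESeq2 called 2 of the 10, Jun and Jund, against 8.07% of all genes, and limma-voom 0, against 2.63%. At an unadjusted p under 0.05, 4 of the 10 passed (Jund, Jun, Dusp1 and Myc), against 21.2% of all genes. An absolute log2 fold change of at least 0.5 was measured for 6 of 10, against 11.7% of all genes, and the median absolute value was 0.65 against 0.16. The spread was large as well, with a median SD of log2 CPM within groups of 0.587 for the 10 genes against 0.241 for all genes. Directions were mixed, with 7 positive and 3 negative values (50.6% positive among all genes) and a median of 0.23 against 0.00. The groups overlapped for each of the 10, whereas 2.53% of all genes had groups that did not overlap.

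**Figure D1:**
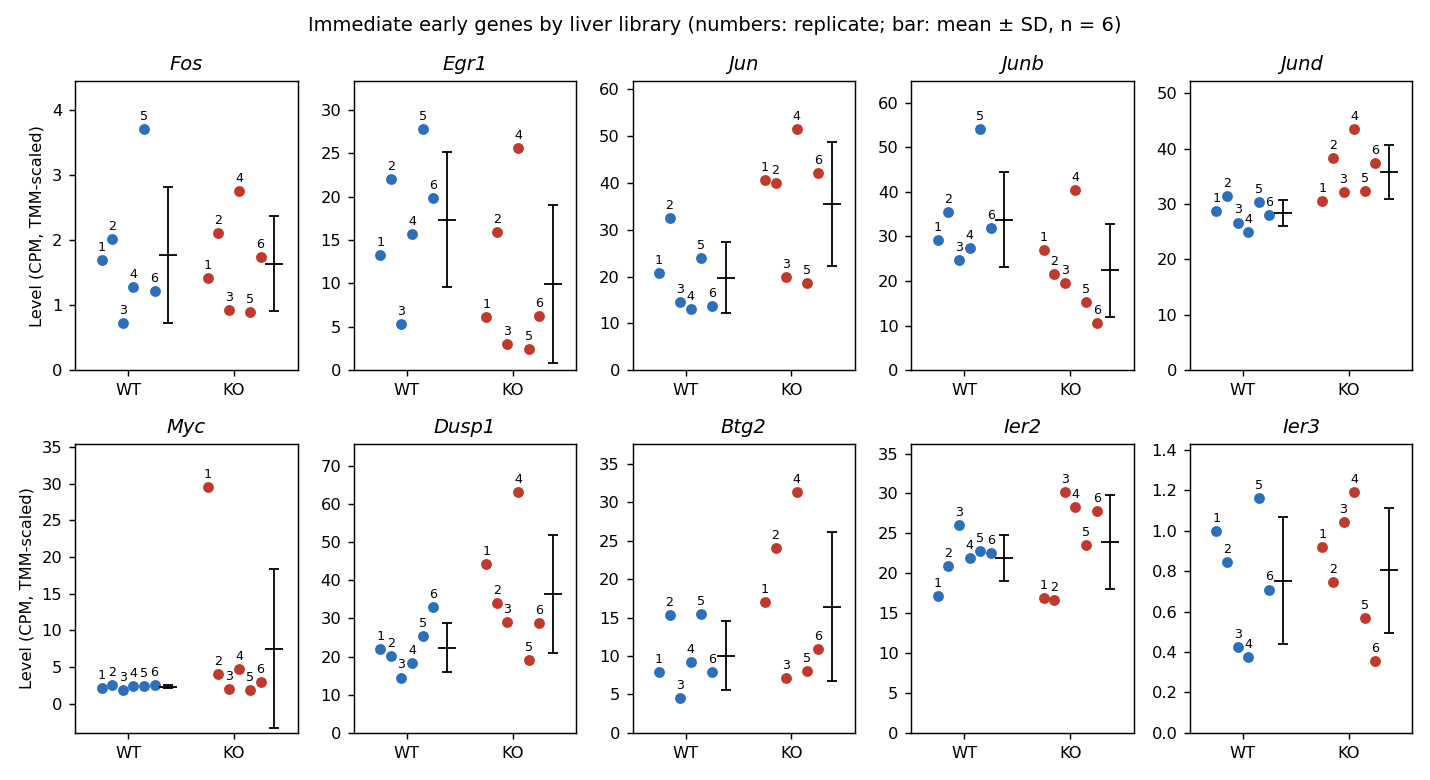
Level of each gene (y axis, CPM, linear) in the 6 WT (blue) and 6 KO (red) libraries, numbered by replicate, with mean ± SD (n = 6) beside each group. KO library 4 is the highest KO library for 8 of the 10 genes, and Myc stands at 29.5 CPM in KO library 1 against at most 4.74 CPM in the other KO libraries.

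Fos encodes the inducible partner of JUN in AP-1. It ran from 0.890 through a median of 1.58 to 2.76 CPM across KO, and in WT from 0.727 through 1.49 to 3.71 CPM. The KO range lay inside the WT range, and the log2 fold change was -0.11 ± 0.38 (SE, 6 libraries a group; edgeR adjusted p = 0.897). Its sign depended on single libraries: it was 0.25 without WT library 5 and 0.00 without KO library 5.

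Egr1 encodes a zinc finger transcription factor induced through MAP kinase and serum response factor. It ran from 2.40 through a median of 6.23 to 25.6 CPM across KO, and in WT from 5.27 through 17.8 to 27.8 CPM. In KO, 4 libraries held 2.40 to 6.28 CPM while libraries 2 and 4 held 15.9 and 25.6 CPM. Only 2 KO libraries lay below all WT libraries. On the log2 scale KO differed from WT by -0.80 ± 0.57 (SE, 6 libraries a group; edgeR adjusted p = 0.450), and -1.36 without KO library 4 (edgeR adjusted p = 0.176). The exact permutation p of Egr1 was 0.117, unadjusted (0.0325 to 0.210 with single libraries left out). Its spread within groups, an SD of 1.10 on the log2 CPM scale, was larger than that of 98.5% of tested genes.

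The 3 Jun family genes had log2 fold changes of differing sign. Jun, the main AP-1 subunit induced by stress kinases, ran from 18.7 through a median of 40.4 to 51.5 CPM across KO, and in WT from 13.1 through 17.7 to 32.6 CPM. KO libraries 1, 2, 4 and 6 exceeded the highest WT library, while KO libraries 3 and 5 (19.9 and 18.7 CPM) lay among them. KO minus WT on the log2 scale came to 0.84 ± 0.30 (SE, 6 libraries a group; edgeR adjusted p = 0.140; exact two-sided permutation p = 0.0390, unadjusted). With single libraries left out, the permutation p was no longer under 0.05 in 8 of 12 cases (up to 0.0801). An antisense gene, Junos, overlaps Jun and had a log2 fold change of 0.08, and since the strand setting is not given their reads cannot be told apart there.

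Junb, an AP-1 subunit gene whose protein can oppose JUN, ran from 10.6 through a median of 20.6 to 40.5 CPM across KO, and in WT from 24.7 through 30.5 to 54.0 CPM. In KO, 4 of 6 libraries lay below all WT libraries, and KO library 4 was the exception at the upper end. edgeR estimated a log2 fold change of -0.59 ± 0.29 (SE, 6 libraries a group; edgeR adjusted p = 0.270; exact permutation p = 0.0584, unadjusted). Without KO library 4 it was -0.85 (edgeR adjusted p = 0.0944; exact permutation p = 0.00649, unadjusted). Over all 12 fits that each left out a library it ran from -0.85 to -0.41, with edgeR adjusted p up to 0.479 and exact permutation p up to 0.128. The ends of Junb and Prdx2 overlap on opposite strands; Prdx2 had a log2 fold change of 0.04. Jund likewise overlaps an antisense gene, Gm11175, which was not tested.

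Jund came closest to passing. It ran from 30.6 through a median of 34.8 to 43.5 CPM across KO, and in WT from 24.9 through 28.4 to 31.5 CPM. Above the highest WT library were 5 of 6 KO libraries, and the sixth, KO library 1, lay just under WT library 2. Relative to WT the log2 fold change was 0.33 ± 0.09, a 1.26-fold difference (SE, 6 libraries a group; edgeR adjusted p = 0.0655; exact permutation p = 0.00433, unadjusted). Over the 12 fits that each left out a library, the edgeR adjusted p ran from 0.0522 to 0.155, and the exact permutation p stayed at or below 0.0152. Its spread was small, larger than that of only 29.9% of tested genes. The authors' deposited table gives a log2 fold change of 0.34 with an SE of 0.27 and an adjusted p of 0.543, and DESeq2 on the counts used here gave an adjusted p of 0.0197. The mean count per gene in the authors' table is not the mean over the libraries used here. Its SE and adjusted p, here and for Myc, may therefore not rest on the same libraries or scaling.

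Myc encodes the growth-promoting transcription factor MYC. In WT it was among the steadiest of the set, with 1.93 to 2.53 CPM and a median of 2.49 CPM. In KO it ran from 1.94 through a median of 3.49 to 29.5 CPM, and the highest value, in KO library 1, was 10.1 times the median of the other 5 KO libraries. On the log2 scale KO differed from WT by 1.67 ± 0.66 (SE, 6 libraries a group; edgeR adjusted p = 0.176), and 0.41 without KO library 1 (edgeR adjusted p = 0.330). Without that library the KO mean was 3.13 ± 1.25 CPM (SD, n = 5), and 3 of those 5 exceeded the highest WT library. The exact permutation p of Myc was 0.121, unadjusted (0.0260 to 0.245 with single libraries left out). The authors' deposited table gives Myc a log2 fold change of 1.68 and an adjusted p of 0.0348, the only 1 of the 10 genes under 0.05 there (5.58% of genes in that table were). DESeq2 run on the 12 libraries returned no p for Myc.

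**Figure D2:**
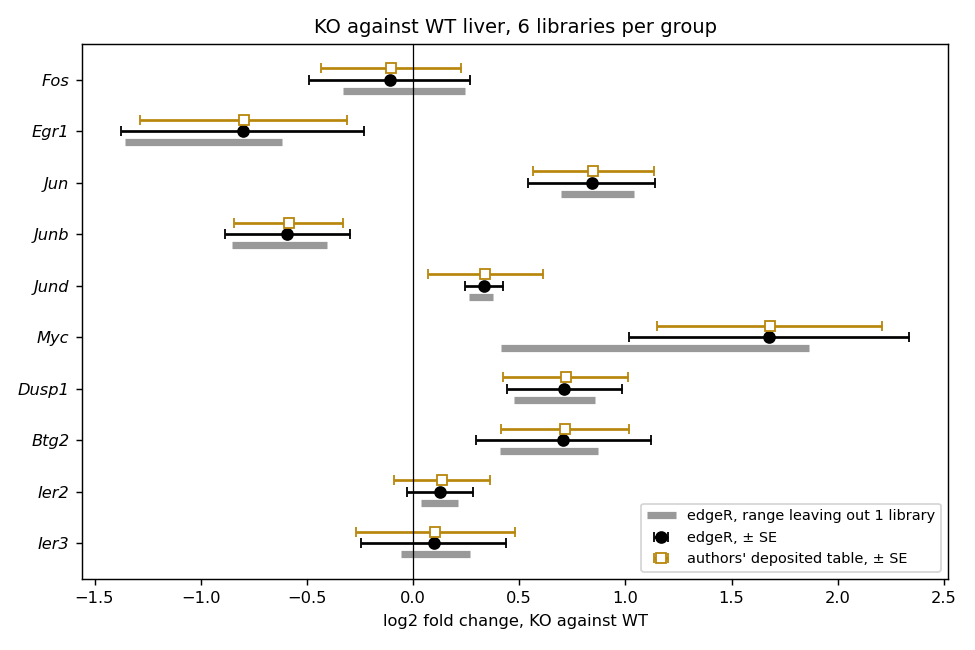
log2 fold change of KO against WT (x axis) for each gene, from edgeR (black, ± SE), with the range over 12 fits that each leave out a library (grey) and the values of the authors' deposited table (open squares, ± SE). Myc has the widest grey range, 0.41 to 1.87, while Jund keeps the narrowest SE, 0.09.

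The Myc level of KO library 1 was set beside its partners and targets. Of 10 partner and antagonist genes of the MYC network, KO library 1 was the highest KO library for 3, the lowest for 3, and in the upper 3 of 6 for 6. Of 16 genes of ribosome production and growth that MYC is known to activate, KO library 1 was the highest KO library for 1, the lowest for 5, and in the upper 3 of 6 for 3. Gadd45g, a stress-inducible growth arrest gene, was also highest in KO library 1, at 58.8 CPM against 4.59 to 19.5 CPM in the other KO libraries.

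Dusp1 and Btg2 are early genes whose products restrain growth signalling. Dusp1, the nuclear MAP kinase phosphatase gene, ran from 19.1 through a median of 31.6 to 63.2 CPM across KO, and in WT from 14.5 through 21.1 to 33.0 CPM. Above the highest WT library were 3 of 6 KO libraries (1, 2 and 4). KO minus WT on the log2 scale came to 0.71 ± 0.27 (SE, 6 libraries a group; edgeR adjusted p = 0.163; exact permutation p = 0.0476, unadjusted). That permutation p was no longer under 0.05 in 10 of 12 cases with a library left out (up to 0.104). Dusp1 overlaps Ergic1 on the opposite strand, which had a log2 fold change of 0.29. Btg2, which encodes an antiproliferative cofactor of mRNA decay, ran from 7.16 through a median of 14.0 to 31.4 CPM across KO, and in WT from 4.49 through 8.57 to 15.5 CPM. edgeR estimated a log2 fold change of 0.71 ± 0.41 (SE, 6 libraries a group; edgeR adjusted p = 0.345), and 0.41 without KO library 4. The exact permutation p of Btg2 was 0.190, unadjusted.

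Ier2, a small nuclear early protein gene, was second only to Jund in steadiness within groups. It ran from 16.7 through a median of 25.7 to 30.2 CPM across KO, and in WT from 17.1 through 22.2 to 26.0 CPM, with a log2 fold change of 0.13 ± 0.15 (SE, 6 libraries a group; edgeR adjusted p = 0.684). The KO range enclosed the WT range. Ier3, a survival gene induced by NF-kB, was the lowest of the set, at 0.354 to 1.19 CPM in KO and 0.373 to 1.16 CPM in WT, with 12 to 44 counts per library. Its log2 fold change of 0.10 ± 0.34 (SE; edgeR adjusted p = 0.901) ran from -0.05 to 0.27 when single libraries were left out.

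Most of these genes varied together from library to library. After the mean of each group was subtracted from log2 CPM, 36 of 45 pairs had a positive Pearson r over the 12 libraries, with a median of 0.487, and 8 pairs passed (permutation within groups, 100000 resamples, Benjamini-Hochberg over 45 pairs). The same shares over pairs of other genes were not computed, so whether they are particular to these genes was not tested. Egr1 and Btg2 were closest, with r = 0.939 and rho = 0.930 (permutation p = 0.000120 and adjusted p = 0.00540 for r, adjusted p = 0.00810 for rho). Their r was 0.960 within KO, 0.908 within WT and 0.881 without the 2 libraries farthest from the median of Egr1. Fos followed both, with r = 0.868 and rho = 0.860 to Egr1 (permutation p = 0.000480, adjusted p = 0.00900 for r and 0.0227 for rho). Fos to Btg2 had r = 0.886 and rho = 0.860 (permutation p = 0.000600, adjusted p = 0.00900 for r and 0.0227 for rho). Without the 2 libraries farthest from the median of Fos, these r were 0.897 and 0.890.

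Jun joined this cluster through Fos (r = 0.802, rho = 0.825, permutation p = 0.00332, adjusted p = 0.0299 for r and 0.0245 for rho). It also followed Btg2 (r = 0.804, rho = 0.678, permutation p = 0.00516), where r passed (adjusted p = 0.0375) and rho did not (0.0789). The other passing pairs were Junb with Ier3 (r = 0.820, rho = 0.783), Egr1 with Dusp1 (r = 0.790, rho = 0.650) and Fos with Jund (r = 0.750, rho = 0.748). Their adjusted permutation p for r were 0.0107, 0.0375 and 0.0375, and for rho 0.0319, 0.0870 and 0.0480. The r of Egr1 with Dusp1 was 0.543 without the 2 libraries farthest from the median of Egr1. By rho 10 pairs passed, 4 of which did not pass by r: Junb with Dusp1 (rho = 0.839, r = 0.733), Btg2 (rho = 0.811, r = 0.736) and Myc (rho = 0.797, r = 0.435), and Dusp1 with Myc (rho = 0.832, r = 0.520). Their adjusted permutation p for rho were 0.0245, 0.0319, 0.0326 and 0.0227, and for r 0.0646, 0.0530, 0.432 and 0.328. Ier2 had no passing pair by either, and its r to the other 9 genes ran from -0.572 to 0.120.

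In single libraries this meant that KO library 4 was the highest KO library for 8 of 10 genes, and among the upper 2 for all 10. KO library 5 was lowest for 5 and WT library 3 for 6. WT library 5 was highest in WT for 5 genes. KO library 4 and WT library 5 were the ones far from the rest of their group for 0.573% and 0.567% of tested genes. The 12 libraries ran from 0.407% to 1.59%. By that rule neither library stood apart for any of the 10 genes. The rule therefore cannot show whether other genes shared the pattern of the 10, which was not tested.

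**Figure D3:**
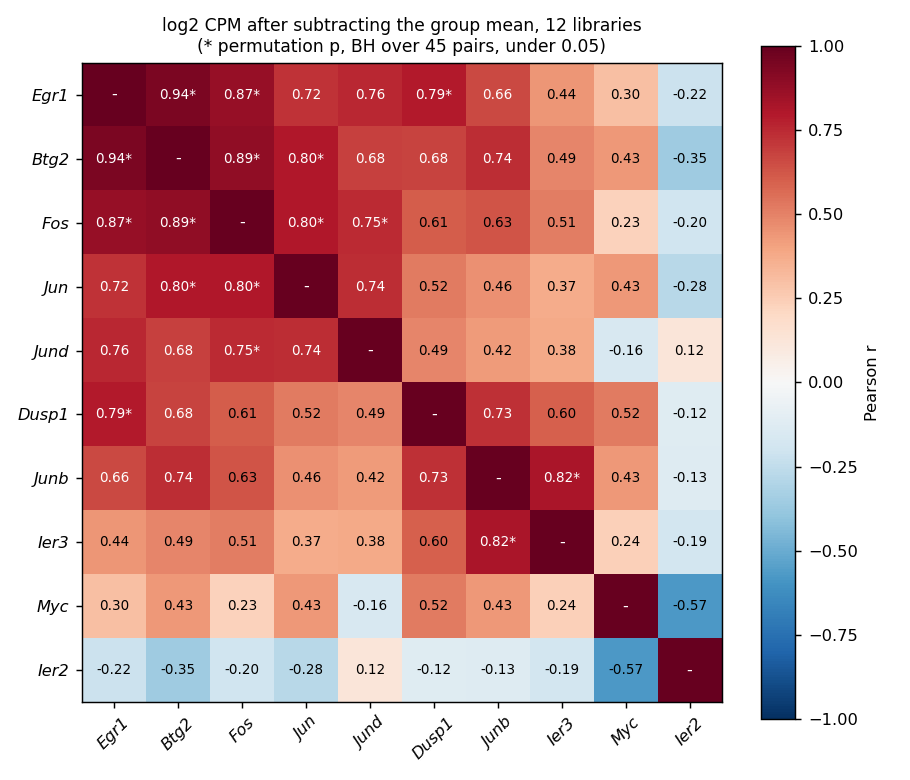
Pearson r between genes (colour and number) over 12 libraries, for log2 CPM after subtraction of each group's mean; asterisks mark adjusted permutation p under 0.05. Egr1, Btg2 and Fos form the tightest block, with r from 0.868 to 0.939, and Ier2 is near or below 0 with most genes.

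Ratios of counts within a library do not depend on scaling. Of the 45 ratios between the 10 genes, 4 had groups that did not overlap, against 2.2% of all pairs of genes with counts in every library. The 4 share genes, and they were picked after their values were seen and are given without a test. The ratio of Egr1 to Btg2 spanned 0.299 to 0.817 in KO against 1.17 to 2.51 in WT, although the genes followed each other closely within both groups. The ratio of Jun to Junb spanned 1.02 to 3.99 in KO against 0.431 to 0.922 in WT, so Jun had more counts than Junb in each KO library and fewer in each WT library. The ratio of Junb to Dusp1 spanned 0.365 to 0.805 in KO against 0.965 to 2.12 in WT. The ratio of Junb to Myc had a median of 6.60 in KO and 13.1 in WT.

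**Figure D4:**
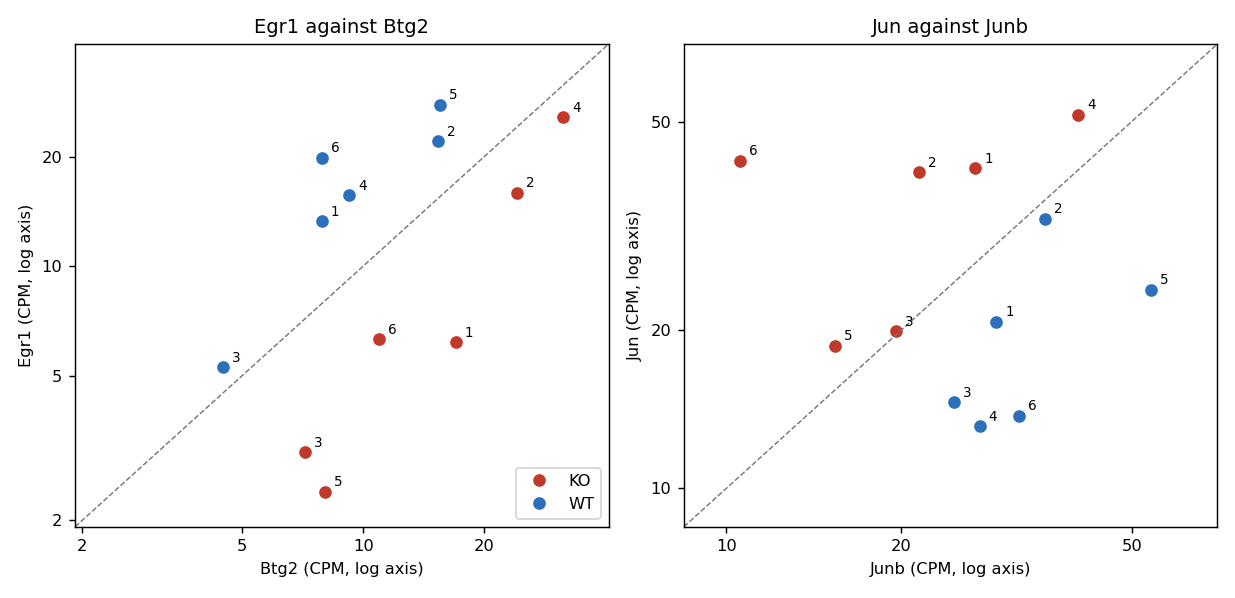
Egr1 against Btg2 (left) and Jun against Junb (right) in CPM on log axes, one point per library, numbered by replicate, with the line of equal CPM dashed. KO points (red) lie below the line for Egr1 against Btg2, with ratios of 0.299 to 0.817, and WT points (blue) above it; for Jun against Junb the sides are exchanged.

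The genes whose levels most resembled the mean of the 10, after the same centring and over the same 12 libraries, were Treml4 (r = 0.942, rho = 0.930), Tbc1d1 (r = 0.921, rho = 0.951), Lgmn (r = 0.918, rho = 0.853), Cyp3a13 (r = 0.915, rho = 0.888) and Axl (r = 0.911, rho = 0.923). They are named from the 12872 genes averaging 1 CPM or more, of which 0.886% had an r above 0.8, as a description without a test. Treml4 encodes a myeloid receptor, TBC1D1 regulates glucose transporter traffic, legumain is a lysosomal protease, Cyp3a13 encodes a cytochrome P450, and AXL is a receptor tyrosine kinase. The mean of the 12 macrophage markers had r = 0.788 (rho = 0.685) to the mean of the 10 genes, that of the 10 stellate cell markers r = 0.731 (rho = 0.832) and that of the 9 hepatocyte markers r = -0.460 (rho = -0.601). For the other marker lists r was 0.482 (cholangiocyte), 0.415 (neutrophil), 0.341 (lymphocyte), 0.048 (endothelial) and -0.314 (red blood cell). The part of these cells in the spread of the early genes was not tested. Other early transcription factor genes and AP-1 target genes had r of 0.781 each, and phosphatase and feedback inhibitor genes 0.644. Receptor genes and upstream kinase and transcription factor genes had 0.433 each, the MYC network -0.035 and MYC targets -0.613.

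Of 18 other transcription factor genes of this class, 13 were tested and 0 passed with edgeR, with a median log2 fold change of -0.01. At an unadjusted p under 0.05 there were 2, against 21.2% of all genes. The counts called were 0 with limma-voom, against 2.63%, and 1 with DESeq2 (Klf10, adjusted p = 0.0360), against 8.07%. Klf10, a TGF-beta inducible repressor gene, had -0.73 ± 0.25 and Maff, a small MAF protein gene, -1.05 ± 0.46 (log2, SE; edgeR adjusted p = 0.121 and 0.210). Of 26 early genes with other products, 0 passed with edgeR, and the median was 0.06. At an unadjusted p under 0.05 there were 7 of these 26, and limma-voom called 0 and DESeq2 3 (shares of all genes as above). Among the 3 were Id3 (adjusted p = 0.00196) and Gadd45g (0.0104). Id3, an inhibitor of helix-loop-helix factors, had 1.16 ± 0.30 and Gadd45g 2.18 ± 0.63 (log2, SE; edgeR adjusted p = 0.0642 and 0.0833), and for each of them 5 of 6 KO libraries exceeded the highest WT library. Without KO library 1, Gadd45g had a log2 fold change of 1.29. Within groups, the mean of these 26 genes followed that of the 10, with r = 0.907 (rho = 0.888).

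Upstream, the genes that passed encode a transcription factor and receptors. Of 26 kinase and transcription factor genes, 1 rose and 25 did not pass (2.64% of all genes passed), with a median of 0.00. An unadjusted edgeR p under 0.05 was reached by 5 of the 26, against 21.2% of all genes. With DESeq2 2 were called, against 8.07%, and with limma-voom 1, against 2.63%. Crem, whose products activate or repress cAMP response elements, ran from 20.3 through 27.5 to 34.7 CPM across KO, and in WT from 13.8 through 16.0 to 21.4 CPM. Relative to WT the log2 fold change was 0.74 ± 0.13 (SE, 6 libraries a group; edgeR adjusted p = 0.0176), with 5 of 6 KO libraries higher than the highest WT library. Without WT library 4 the adjusted p was 0.0502. Srf (0.17 ± 0.08) and Creb1 (0.03 ± 0.15) did not pass (log2, SE).

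Of 17 growth factor and receptor genes, 2 fell and 15 did not pass (1.49% of all genes fell), with a median of -0.19. An unadjusted edgeR p under 0.05 was reached by 4 of the 17, against 21.2% of all genes. With DESeq2 2 were called, against 8.07%, and with limma-voom 2, against 2.63%. Met, the receptor of hepatocyte growth factor, spanned 55.5 to 82.6 CPM in KO against 89.4 to 123 CPM in WT, with no overlap, and fell by 0.57 ± 0.10 on the log2 scale (SE, 6 libraries a group; edgeR adjusted p = 0.0176, and 0.0502 without WT library 4). Insr, the insulin receptor gene, spanned 88.4 to 139 CPM in KO against 130 to 163 CPM in WT, and fell by 0.40 ± 0.10 (SE; edgeR adjusted p = 0.0417). Its call was lost in 10 of the 12 fits that left out a library, with adjusted p up to 0.106.

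Among 14 phosphatase and feedback inhibitor genes, 1 rose and 13 did not pass (2.64% of all genes passed), with a median of -0.02. An unadjusted edgeR p under 0.05 was reached by 2 of the 14, against 21.2% of all genes. With DESeq2 1 was called, against 8.07%, and with limma-voom 0, against 2.63%. Dusp8, a phosphatase gene for stress-activated MAP kinases, ran from 1.16 through 5.45 to 7.15 CPM across KO, and in WT from 0.677 through 0.886 to 2.12 CPM. KO library 5 lay among the WT libraries and the other 5 above them. On the log2 scale KO differed from WT by 2.13 ± 0.42 (SE, 6 libraries a group; edgeR adjusted p = 0.0253). The call was lost in 4 of 12 fits, without KO library 6 (0.0550) or WT library 2 (0.0576), 4 (0.0658) or 5 (0.0652), and with limma-voom (0.0600).

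Downstream, no gene of the AP-1 target, MYC target and MYC network lists passed with edgeR or limma-voom. DESeq2 called 1 of 14, 5 of 16 and 1 of 10, against 8.07% of all genes. Among these were Mt2 (adjusted p = 0.0283), Npm1 (0.00610), Nop56 (0.0465) and Mlx (0.0324). Mt2 was near the floor, at 0.0885 to 1.11 CPM in KO and 0.276 to 2.36 CPM in WT. At an unadjusted edgeR p under 0.05 there were 5, 8 and 2, against 21.2% of all genes. Of 14 AP-1 targets, 5 were positive and 9 negative with a median of -0.26, and the metallothionein genes Mt2 and Mt1 had log2 fold changes of -1.98 ± 0.66 and -1.75 ± 0.67 (SE; edgeR adjusted p = 0.114 and 0.168). That median was -0.65 without KO library 2 and 0.00 without WT library 5. Of 16 MYC targets, 11 were positive with a median of 0.11; Npm1, a nucleolar chaperone gene, had -0.26 ± 0.07 and Nop56, a ribosomal RNA methylation factor gene, 0.35 ± 0.11 (SE; edgeR adjusted p = 0.0556 and 0.0909). Of 10 genes of the MYC network, 0 passed with a median of 0.02, and Mlx had 0.36 ± 0.10 and Mycn 0.84 ± 0.30 (SE; edgeR adjusted p = 0.0780 and 0.131).

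**Figure D5:**
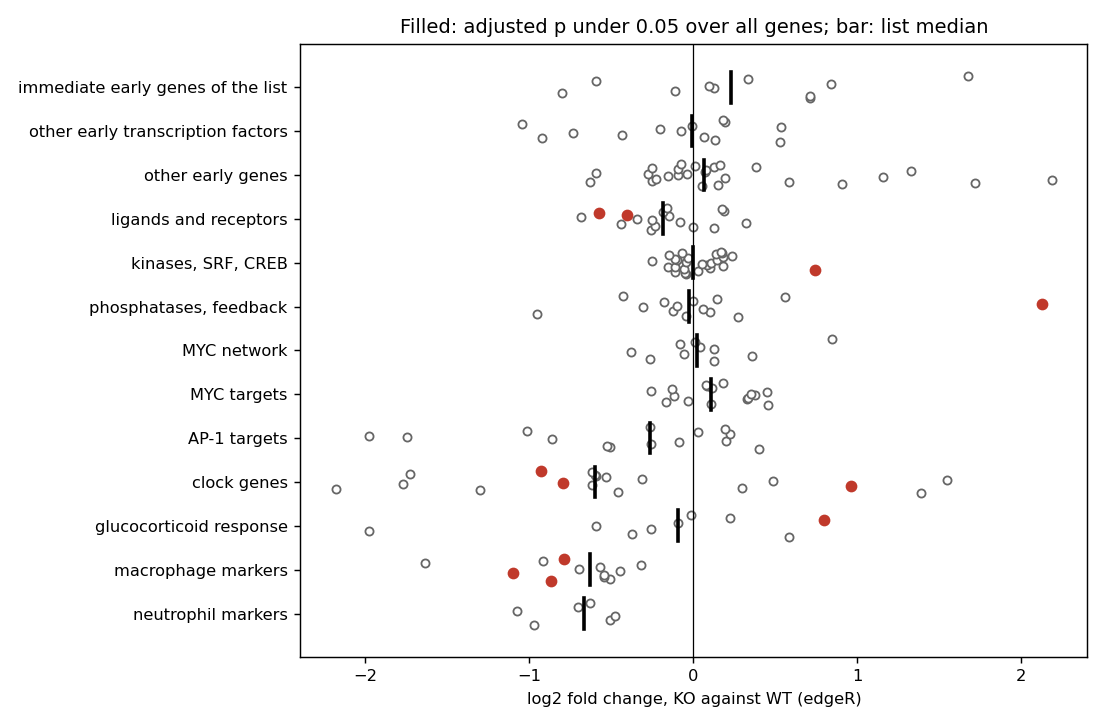
log2 fold change of KO against WT (x axis) of each tested gene in 13 lists, with genes that passed filled in red and the list median as a bar. The 10 early genes spread from -0.80 to 1.67 with none filled. The macrophage and neutrophil markers both lie wholly below 0, with medians of -0.63 and -0.67.

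Clock genes and glucocorticoid-responsive genes were the last lists examined (2.64% of all genes passed). Of 18 clock genes, 1 rose (Cry1, 0.96 ± 0.21), 2 fell (Tef, -0.93 ± 0.20; Hlf, -0.80 ± 0.16; log2, SE) and 15 did not pass (edgeR adjusted p from 0.0266 to 0.0360 for the 3). With single libraries left out, Cry1 lost its call in 9 of 12 fits, Tef in 7 and Hlf in 4. At an unadjusted edgeR p under 0.05 there were 13 of the 18, against 21.2% of all genes. DESeq2 called 12, against 8.07%, and limma-voom 5, against 2.63%. Fold changes were negative for 13 of the 18, with a median log2 value of -0.60. Clock genes had a summed level of 584 to 873 CPM in KO and 844 to 1335 CPM in WT. Of 9 glucocorticoid-responsive genes, 1 rose and 8 did not pass, 6 of 9 were negative and the median was -0.09. An unadjusted edgeR p under 0.05 was reached by 4 of these 9. With DESeq2 3 were called and with limma-voom 1 (shares of all genes as for the clock genes). Tat, which encodes tyrosine aminotransferase, had 0.80 ± 0.14 (log2, SE; edgeR adjusted p = 0.0176) and all 6 KO libraries exceeded the highest WT library. Without WT library 4 its adjusted p was 0.0502. Within groups, the mean of the clock genes had r = -0.153 (rho = -0.350) and that of the glucocorticoid genes r = 0.226 (rho = 0.350) to the mean of the 10 early genes. The hour of collection is not given in the sources used here, and its part in the early gene values was not tested.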

How the data were processed

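PolyA-selected liver RNA was sequenced in 6 KO and 6 WT libraries, grouped by their titles. The deposited table held raw read counts per gene and library and the authors' own comparison per the file headers: log2 fold changes with SE, a test statistic (a score), and p-values raw and adjusted. FastQC, Trimmomatic, HISAT2, SAMtools, featureCounts, DESeq2 and the GRCm38 build come from the submitters' processing notes. No version, annotation or strand setting is given in the sources used here. Repeated rows of a gene (204) were left out. Counts were tested with edgeR 4.0.16 (R 4.3.3; TMM, filterByExpr, robust quasi-likelihood F test, 2-sided, Benjamini-Hochberg), and 15000 of 15140 genes passed the filter. The SE is the unshrunken log2 fold change over the square root of F. CPM are TMM-scaled; log2 CPM used a prior count of 2. On counts simulated for KO against WT (14950 genes tested), the test recovered 47.8% of genes set to change 1.5-fold, 80.6% at 2-fold and 98.5% at 4-fold, and 1.95% of calls were false. The changed genes were drawn at random from those averaging at least 1 CPM. The 10 early genes varied more (median SD of log2 CPM within groups 0.587, against 0.241 for all genes), and recovery at their spread was not measured. Single genes were also tested by exact permutation over 924 splits (smallest p 0.00216). No library repeated another: over 30 same-group pairs, chi-square per degree of freedom was at least 38.1. Alternatives were DESeq2 1.42.0, limma-voom 3.58.1, RLE or total-count scaling, dropping the filter, a filter of 1 CPM in 6 libraries, a prior count of 0.5, a replicate block and each library left out. The members and lists were chosen with earlier results of these data known. Named beside the 10 genes and Phb are the called members of each list (up to 4) or else the 2 with the smallest p (of cell marker lists, only called members), and the 5 genes nearest to the mean of the 10; other named genes (Srf, Creb1, Alb, Apoa1, Ttr, overlapping genes) were chosen after their values were seen.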

Additional observations from a re-analysis of the deposited data

Results flagged for a closer look

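Of 94 groups of 6 values examined, 4 held a library far from the other 5, and chance gives about 1 in 20 groups. Gaps are given as a share of the group's whole range of log2 CPM. Myc stood high in KO library 1, with a gap of 0.675 (4.89 against 1.00 to 2.26). Klf10 stood low in KO library 6, with a gap of 0.644 (2.99 against 4.06 to 4.66). The bile duct keratin gene Krt7 stood low in KO library 3, with a gap of 0.644 (-1.89 against -0.21 to 0.72). The T cell kinase gene Lck, at 0.318 CPM on average in KO, stood low in KO library 1, with a gap of 0.726 (-2.58 against -1.40 to -0.95).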

How the results depend on the processing

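Over 19 alternatives, 180 of 188 fold changes of the 10 genes kept their direction and their side of the threshold. DESeq2 called 2 of the 10 (Jund, adjusted p = 0.0197, and Jun, 0.0388), 43 list genes against 12 and 1210 genes against 396 (8.07% against 2.64% of all genes). Total-count scaling gave 257 called genes and 14 passing pairs against 8. Left out singly, libraries gave 25 to 700 called genes (fewest without WT library 4, most without WT library 6), 0 to 23 list genes, 0 of the 10 genes, and 1 to 4 of the 10 at an exact permutation p under 0.05 against 3. That permutation p is unadjusted and was computed for the 10 genes only, so the share of all genes under 0.05 is not known. The fold change changed sign for Fos (-0.33 to 0.25) and Ier3 (-0.055 to 0.27), as did the differences of mean log2 CPM (-0.26 to 0.20 and -0.066 to 0.28). With the replicate block, 374 genes, 0 of the 10 and 19 list genes were called. Of the same-numbered pairs, 4 of 6 had a correlation above 0.1 (range -0.204 to 0.362), and 3 of 6 KO libraries correlated best with their own number. Whether equal numbers mark paired libraries is not given in the sources used here and was not tested. The block also gave Myc a log2 fold change of 0.83 and limma-voom gave 0.89, against 1.67. Ier3 was not tested with a minimum of 1 CPM in 6 libraries. The causes were not tested. Fos and Ier3, at under 4 CPM, had the fewest counts.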

Other observations

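The metallothionein gene Mt1, which the lists hold as an AP-1 target, was set beside Egr1 after both were seen, and is given without a test. In KO, Mt1 stood at 32.9 and 22.6 CPM in libraries 2 and 4, where Egr1 stood at 15.9 and 25.6 CPM, and at 3.64 to 7.30 CPM in the other 4, where Egr1 ran from 2.40 to 6.28 CPM. In WT, both were lowest in library 3 (Mt1 at 9.98 and Egr1 at 5.27 CPM) and highest in library 5 (74.4 and 27.8 CPM).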
